A study of Mus musculus with 36 samples.

Results

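Dexamethasone and vehicle were compared after 2 h in mouse cortical astrocyte cultures, on the 3 arrays labelled as 2 h dexamethasone and the 3 labelled as 2 h vehicle, of 36 arrays in the series. The dexamethasone cultures received about 100 nM of this synthetic glucocorticoid in the medium for 2 h, and the vehicle cultures are labelled as vehicle for 2 h, with the vehicle itself not named. All cultures were primary astrocytes from the brain of newborn C57B/6 pups (stage P0-P2), grown in serum-containing medium to near confluence; the source is labelled as cortex, while the growth protocol allows cortex or hippocampus. The other 30 arrays are the same comparison at 0.25, 1, 4, 6, 12, 18 and 24 h, with 2 arrays per group except at 4 h, where there are 3. The labels do not say whether replicates are separate cultures or animals, so the p-values describe the scatter of these arrays and may cover technical variation alone. The titles of the 2 h vehicle samples carry a suffix, also present at 4 and 6 h, that the dexamethasone titles lack; its meaning is not stated, and at 2 h it cannot be told apart from the treatment.

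Dexamethasone binds the glucocorticoid receptor, encoded by Nr3c1, which then moves to the nucleus and acts as a transcription factor. The receptor binds DNA as a pair at palindromic elements, where it raises transcription of nearby genes, and it also restrains other factors such as NF-kappaB and AP-1 that drive inflammatory genes. Astrocytes carry the receptor and are glial cells that take up glutamate, couple through connexin gap junctions and release cytokines and growth factors.

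At 2 h the response was made mostly of rises. With limma fitted to 20893 genes over all 36 arrays, 146 genes passed an adjusted p under 0.05, of which 120 were higher in dexamethasone cultures (0.574 percent of genes tested) and 26 were lower (0.124 percent). The connexin gene Gjb6, the lipocalin gene Lcn2, the co-chaperone gene Fkbp5 and Fam107a rose most, by 3.71 to 3.21 on the log2 scale, and the feedback gene Phlda1 and the oxysterol enzyme gene Ch25h fell most, by 2.19 and 2.03. With a group below background on all its arrays set to the background level, 76 of the higher and 11 of the lower genes reached a 2-fold change and 19 of the higher genes a 4-fold one. The smallest called change was 0.62 on the log2 scale. The plot of differences against level shows the called genes standing over the whole range of intensities.

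**Figure D1:**
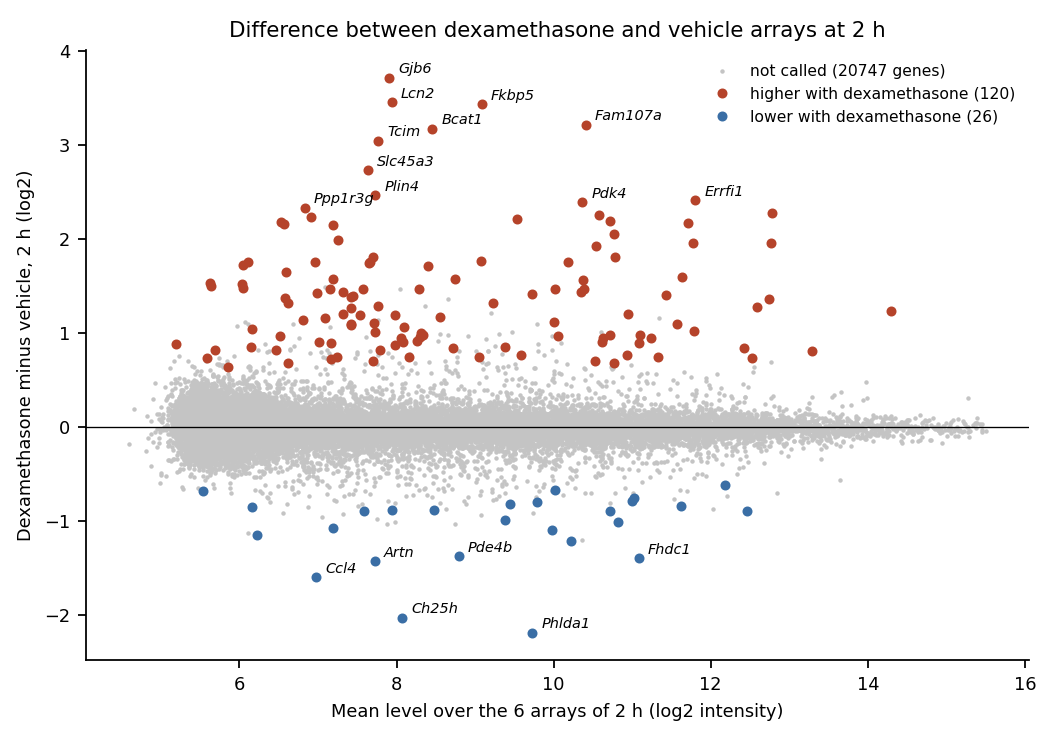
Each point is 1 gene at 2 h; the horizontal axis is its mean log2 intensity over the 6 arrays and the vertical axis the log2 difference, dexamethasone minus vehicle. The 120 genes called higher reach 3.71 (Gjb6) and the 26 called lower reach -2.19 (Phlda1), while the 20747 genes not called lie around 0.

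Arrays with the same replicate number resembled each other, and this bears on how many genes pass. The called genes were chosen on these same arrays, so their pair values are a description. The median difference of the higher genes was 1.20, 1.28 and 1.30 in pairs 1, 2 and 3, and that of the lower genes was -0.85, -0.98 and -1.03. With the replicate number as a block within each time, 257 genes were higher (1.23 percent) and 131 lower (0.627 percent), and all 146 genes stayed called. Calls said below to be lost without an array refer to the fit without the block. With the 6 arrays of 2 h fitted alone and no block, 46 genes were higher and 2 lower. The arrays of the 2 groups did not overlap for 145 of the 146 called genes, against 1162 (5.56 percent) of all genes tested. The exception was the amino acid transporter gene Slc38a2.

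Astrocyte markers ranged widely in level, from bright to background. On the log2 intensity scale, on which the background level was 5.81, Gfap averaged 13.39 ± 1.1 in dexamethasone and 13.37 ± 0.86 in vehicle cultures (SD, n = 3 each), Aqp4 13.20 ± 0.34 and 13.15 ± 0.41, and Gja1, connexin 43, 14.20 ± 0.25 and 14.18 ± 0.08. At the low end, S100b averaged 5.81 in dexamethasone and 5.78 in vehicle cultures, and Mlc1 6.52 and 6.29. Of 21 astrocyte markers tested, 19 lay above background on all 6 arrays, against 14240 of all 20893 genes. Of the 21, 1 was called (Gjb6, higher), or 2 with the replicate block (also Glul, 1.21), and their median difference was 0.05. Of markers of other cells, 16 of 18 for microglia, 8 of 9 for fibroblasts, meninges and pericytes, 7 of 9 for neurons, 4 of 5 for ependyma, 7 of 13 for the oligodendrocyte lineage and 3 of 8 for endothelium lay above background on all 6 arrays. No microglia, oligodendrocyte, neuron, fibroblast, endothelial or ependymal marker was called. The mean level of the astrocyte markers, Gjb6 among them, was 10.33, 10.52 and 10.74 in dexamethasone arrays and 10.07, 10.26 and 10.42 in vehicle arrays. The mean level of the microglia markers was 7.88 to 8.22 in dexamethasone and 7.86 to 8.26 in vehicle arrays, with Ptprc not above background on any. Their part in the results below was not tested. In RNA of mixed cultures, fewer cells of a type and less RNA per cell cannot be told apart.

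Receptor genes themselves did not pass. Nr3c1 had 6.27, 6.68 and 6.51 in dexamethasone arrays and 6.31, 6.61 and 6.83 in vehicle arrays, a difference of -0.10 (SE 0.34, adjusted p = 1.0). Nr3c2, the mineralocorticoid receptor, lay above background on 1 dexamethasone array and no vehicle array. Hsd11b1, which regenerates active glucocorticoid, had a difference of -0.20 (SE 0.25). None of the 13 tested receptor, chaperone and steroid-converting genes was called, with or without the block, and their median was -0.05, against -0.01 for all genes tested.

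Well-known glucocorticoid receptor targets made up the largest called group. Of 32 tested, 19 rose, none fell and 13 did not pass, with a median difference of 1.31. Hif3a counts among the 13 by the probe of that name, while Ipas, another listing of this gene, was called higher. The list was assembled with earlier results of these data known, so its direction is not independent evidence. Fkbp5, a co-chaperone that lowers the receptor's affinity for its ligand, had 10.67, 10.69 and 11.04 in dexamethasone arrays and 7.59, 7.13 and 7.37 in vehicle arrays. The difference was 3.43 (SE 0.18, 10.8-fold, adjusted p = 2.7e-12). Tsc22d3, which encodes the leucine zipper protein GILZ, had 12.79, 12.53 and 13.05 in dexamethasone arrays and 10.68, 10.58 and 10.61 in vehicle arrays, a difference of 2.17 (SE 0.16, adjusted p = 9.8e-10). For both genes the lowest dexamethasone array lay far above the highest vehicle array.

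Gjb6, connexin 30 of astrocyte gap junctions, had the largest rise of all genes. Its level was 9.82, 9.84 and 9.63 in dexamethasone arrays and 6.26, 5.91 and 5.97, just above background, in vehicle arrays (3.71, SE 0.16, 13.1-fold, adjusted p = 4.6e-14). Lcn2, a siderophore-binding protein that reactive astrocytes secrete, had 9.65, 9.33 and 10.04 in dexamethasone and 6.22, 5.95 and 6.5 in vehicle arrays (3.45, SE 0.26, adjusted p = 1.2e-09). Fam107a, which encodes an actin-associated protein, had 11.54, 12.24 and 12.27 in dexamethasone and 8.72, 8.94 and 8.75 in vehicle arrays (3.21, SE 0.25, 9.28-fold, adjusted p = 3.8e-09). All vehicle arrays of these 3 genes were above background, those of Gjb6 and Lcn2 narrowly, and the groups did not overlap in any of them.

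Kinase and feedback genes of the same list followed. Sgk1, a serum- and glucocorticoid-regulated kinase, had 13.41, 14.06 and 13.75 in dexamethasone and 11.55, 12.10 and 11.75 in vehicle arrays (1.95, SE 0.25, adjusted p = 2.7e-05). Errfi1, which binds and inhibits the EGF receptor, rose by 2.41 (SE 0.17), and Pdk4, a kinase that shuts off pyruvate dehydrogenase, by 2.39 (SE 0.18). Nfkbia, which encodes the NF-kappaB inhibitor IkBa, had 10.88, 10.77 and 11.81 in dexamethasone and 9.48, 9.24 and 10.08 in vehicle arrays (1.56, SE 0.29, adjusted p = 0.0032). Replicate 3 was the highest array of Nfkbia in both groups, and its 3 pair differences were 1.4, 1.54 and 1.73.

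The remaining called targets were Plin4, a perilipin of lipid droplets whose probe is listed as S3-12 (2.46), Klf9 (2.27), Per1 (2.25), Arrdc2 (1.81), the metallothionein gene Mt2 (1.46), the sulfotransferase gene Sult1a1 (1.41), the adhesion scaffold gene Nedd9 (1.36), Klf15 (1.26), the mTOR inhibitor gene Ddit4 (1.20) and the cyclin-dependent kinase inhibitor gene Cdkn1a (0.73). Glul, glutamine synthetase, had 9.51, 10.12 and 9.80 in dexamethasone and 8.63, 8.72 and 8.46 in vehicle arrays, yet did not pass (1.21, SE 0.31, adjusted p = 0.071). Glul, the mRNA decay factor gene Zfp36 (0.89) and the transcription factor gene Zbtb16 (1.09) passed with the block, at adjusted p of 0.0030, 0.023 and 0.022, which makes 22 of 32. Mt2 lost its call without dexamethasone replicate 1 or 2 or vehicle replicate 3 (adjusted p up to 0.22), and Cdkn1a without dexamethasone replicate 1 or 3 or vehicle replicate 2 (up to 0.11).

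Other textbook targets did not pass at this time. Dusp1, a MAP kinase phosphatase, averaged 13.39 ± 0.24 in dexamethasone and 13.42 ± 0.14 in vehicle cultures, a difference of -0.03 (SE 0.14). Cebpd, a C/EBP factor, averaged 10.38 in both groups, and Mt1, next to the upper end of the intensity range, had a difference of -0.06 (SE 0.11). The probe listed as Hif3a gave 0.18 (SE 0.19). The probe listed as Ipas, an isoform name of the same gene, gave 8.05, 7.49 and 7.39 in dexamethasone arrays and was not above background in any vehicle array, at least 3.56-fold higher with dexamethasone (adjusted p = 2.0e-08).

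**Figure D2:**
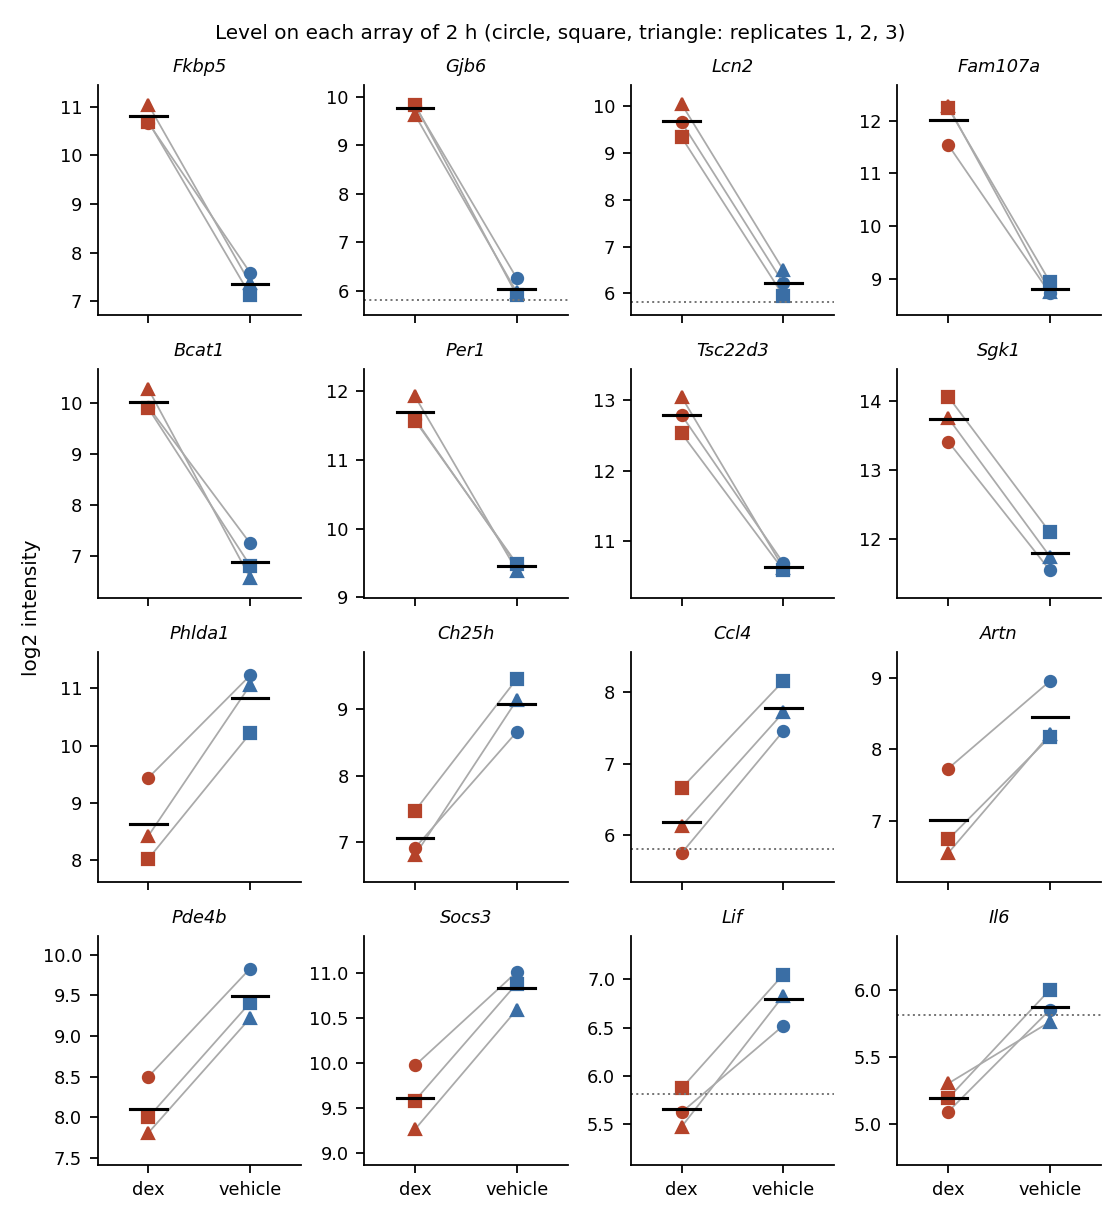
Each panel shows 1 gene, with log2 intensity on the vertical axis, the 3 dexamethasone arrays on the left and the 3 vehicle arrays on the right; lines join equal replicate numbers, black bars are means and the dotted line, where it falls in range, is the background level of 5.81. In each of the 16 genes shown the groups do not overlap, and Il6 is not above background in any dexamethasone array.

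Promoter sequences were searched for the 13-letter glucocorticoid response element, the palindrome that the receptor binds. It was taken as the 9 letters ACANNNTGT with G and any base before them and any base and C after them, which reads the same on both strands. RefSeq windows (GRCm38.p6) run from 250 bases before to 50 after a gene's start. The motif was in 0.475 percent of all 32851 windows and in windows of 9 of the 89 genes called higher that have an entry, of 0 of the 17 called lower, and of 53 of 11780 tested genes with an entry. The core ACANNNTGT, with or without the outer letters, was in 6.85 percent of all windows. It was in windows of 12 of the 89 and 0 of the 17 genes, and of 690 of 11780 tested genes. The 12 include the 9 with the full motif. Genes can have several windows, so shares of genes and of windows differ, and these counts carry no test. The 9 sites are printed from 5′ to 3′ with the motif in capitals and 8 bases on each side. Their order follows the fitted difference, and the places of Folh1, Slc10a6 and Kcna5, which have no vehicle array above background, are therefore uncertain. They are shown because they are the only full matches among the higher genes, and they were picked after the values were seen.
Fam107a (chr14:8309877-8309905, minus strand): ggtggcttGGACATGGTGTTCtgagtctc
Folh1 (chr7:86776042-86776070, minus strand): ttttctgaGTACAGGCTGTACtatttggc
Sgk1 (chr10:21993694-21993722, plus strand): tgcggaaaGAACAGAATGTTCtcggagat
Slc10a6 (chr5:103629546-103629574, minus strand): cttccctaGAACACGATGTGCcactgtcg
Map3k6 (chr4:133240629-133240657, plus strand): gaatagggGCACAGGCTGTTCcggaagtg
Kcna5 (chr6:126535594-126535622, minus strand): cgctcctgGTACAACCTGTTCctcgctcc
Txnip (chr3:96557777-96557805, plus strand): cgctaggaGCACACCGTGTCCacgcgccc
Car14 (chr3:95904890-95904918, minus strand): gggaatgaGAACACGGTGTCCtgggaggg
Map7d2 (chrX:159459127-159459155, plus strand): acaggacaGGACACAGTGTTCacagtctg

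The site of Fam107a, the largest riser among these 9, began 118 bases before 1 of its starts, and that of Sgk1 188 bases before 1 of its starts. Sites in Folh1, Slc10a6 and Kcna5 (at least 3.52-fold, 2.27-fold and 1.96-fold higher, with no vehicle array above background), Map3k6 (1.74), Txnip (1.27) and Car14 (1.1) lay 59 to 225 bases before the start, and that of Map7d2 (listed as 2900002G04Rik, 1.08) 10 bases after it. Among the 8 largest risers with an entry, only Fam107a held the motif, and only Fam107a and Lcn2 the shorter one. The windows of Fam107a, Fkbp5, Lcn2 and Gjb6, the 4 of the largest risers named above, are printed to show how unlike their starts are. Fam107a has 3 windows, and the window with most motif matches was taken, while Fkbp5, Lcn2 and Gjb6 have 1 each. The capitals mark the motif in Fam107a and the shorter form, 152 bases before the start, in Lcn2. Fkbp5 and Gjb6 have neither in this window.
Fam107a (chr14:8309730-8310029, minus strand): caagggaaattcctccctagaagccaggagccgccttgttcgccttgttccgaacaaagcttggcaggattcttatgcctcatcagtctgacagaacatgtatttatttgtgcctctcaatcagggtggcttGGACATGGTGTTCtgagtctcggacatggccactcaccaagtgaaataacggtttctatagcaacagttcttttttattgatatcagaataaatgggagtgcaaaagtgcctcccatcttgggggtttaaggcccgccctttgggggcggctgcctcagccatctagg
Fkbp5 (chr17:28486100-28486399, minus strand): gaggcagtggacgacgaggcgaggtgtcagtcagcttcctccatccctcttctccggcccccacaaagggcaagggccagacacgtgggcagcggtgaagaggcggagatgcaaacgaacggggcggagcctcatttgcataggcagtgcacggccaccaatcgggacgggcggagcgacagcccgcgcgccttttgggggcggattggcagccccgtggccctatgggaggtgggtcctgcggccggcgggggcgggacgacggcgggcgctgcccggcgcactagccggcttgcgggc
Lcn2 (chr2:32387690-32387989, minus strand): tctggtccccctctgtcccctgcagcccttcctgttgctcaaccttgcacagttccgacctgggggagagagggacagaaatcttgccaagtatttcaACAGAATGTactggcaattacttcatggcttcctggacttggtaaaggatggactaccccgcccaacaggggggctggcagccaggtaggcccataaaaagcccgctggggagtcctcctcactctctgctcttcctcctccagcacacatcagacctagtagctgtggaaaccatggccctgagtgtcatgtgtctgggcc
Gjb6 (chr14:57133562-57133861, minus strand): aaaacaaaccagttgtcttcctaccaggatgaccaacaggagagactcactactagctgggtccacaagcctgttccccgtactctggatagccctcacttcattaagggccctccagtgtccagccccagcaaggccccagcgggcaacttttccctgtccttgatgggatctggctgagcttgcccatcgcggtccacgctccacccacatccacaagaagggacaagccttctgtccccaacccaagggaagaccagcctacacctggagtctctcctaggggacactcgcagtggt

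The Fkbp5 window was the richest in G and C of these 4, at 70.7 percent with 32 CpG pairs, against 57.3 percent and 6 pairs in Gjb6, 56.3 percent and 3 in Lcn2 and 49.0 percent and 7 in Fam107a. The cyclic AMP response element TGACGTCA, searched on both strands, was in 5 of the 89 higher and 2 of the 17 lower genes, in 381 of 11780 tested genes with an entry (3.23 percent) and in 1.79 percent of all windows. Ch25h and Sstr2, which encodes a somatostatin receptor, were the 2 lower genes with it. For NF-kappaB, only an exact 10-letter form of the site, with no letter allowed to vary, was searched, on both strands. This form was in neither group, in 27 of 11780 tested genes with an entry and in 0.155 percent of all windows. Other forms of the site were not searched. A form this rare would seldom be met in 89 or 17 genes, so its absence does not show that these promoters lack NF-kappaB sites.

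Among inflammatory genes, 5 ligands and the enzyme gene Ch25h fell. Of 21 cytokine, chemokine and inflammatory enzyme genes tested, 6 fell, none rose and 15 did not pass, among them Ccl5 (-0.10), Cxcl12 (0.15) and Cxcl1 (0.25); the median was -0.31, against -0.01 for all genes, and 11 of the 21 lay above background on all 6 arrays. Ch25h, which makes 25-hydroxycholesterol, had 6.91, 7.47 and 6.8 in dexamethasone arrays and 8.66, 9.46 and 9.14 in vehicle arrays (-2.03, SE 0.32, 4.08-fold, adjusted p = 0.00036). The chemokine gene Ccl4 had 5.75, 6.66 and 6.13 in dexamethasone arrays, of which 2 were above background, and 7.46, 8.16 and 7.72 in vehicle arrays (-1.60, SE 0.26, adjusted p = 0.00058). Lif, a cytokine of the interleukin 6 family, had 5.62, 5.87 and 5.47 in dexamethasone arrays, of which 1 was above background, and 6.52, 7.05 and 6.83 in vehicle arrays (-1.15, SE 0.21, adjusted p = 0.0021). In all 3 genes the highest dexamethasone array lay below the lowest vehicle array. A further Lif probe also fell (-1.26, SE 0.28, adjusted p = 0.026), while another gave 0.34 (SE 0.19) and did not pass.

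The other 3 calls were less stable when single arrays were left out. Cxcl10, an interferon-induced chemokine, fell by 1.08 (SE 0.22), Ccl7 by 0.85 (SE 0.18) and Il6 by 0.68 (SE 0.15). A second Ccl7 probe also passed (-1.0, SE 0.17, adjusted p = 0.0016). Second probes of Cxcl10 (-0.48, SE 0.24) and of Ccl4 (-0.8, SE 0.25) did not. Ccl7 was above background on 1 dexamethasone array and all 3 vehicle arrays, so that its difference, like those of Lif and Ccl4, rests partly on values at background. Il6 was not above background in any dexamethasone array and was above it on 2 vehicle arrays, at least 1.04-fold lower with dexamethasone. Cxcl10 lost its call without dexamethasone replicate 3 or vehicle replicate 3 (adjusted p up to 0.12), and Ccl7 without dexamethasone replicate 2 or 3 or vehicle replicate 1 (up to 0.19). Il6 lost it without dexamethasone or vehicle replicate 1 or 2 (up to 0.13). With the block and all arrays, the adjusted p was 0.0013 for Cxcl10, 0.00088 for Ccl7 and 0.0071 for Il6. Ccl3 had 1 dexamethasone and 3 vehicle arrays above background and passed only with the block (-1.13, adjusted p = 0.010 with it and 0.18 without). Tnf was above background on 1 of 6 arrays and Il1b on none, and Ccl2 gave -0.31 (SE 0.27). Irf1 (-0.90, SE 0.15, adjusted p = 0.00062) was the 1 call among 15 interferon-stimulated genes, whose median was -0.04.

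The NF-kappaB feedback and mRNA decay genes did not move as a group. Of 15 tested, Nfkbia rose and 14 did not pass, with a median of -0.01. With the block 3 rose (Nfkbia, Nfkbiz at 0.87 and Zfp36 at 0.89) and 3 fell (Zfp36l1 at -0.57, Tnfaip3 at -0.64 and Relb at -0.53).

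Growth factor signalling showed rises and falls side by side. Of 19 feedback genes of the MAP kinase and EGF receptor pathways, Errfi1 rose and 4 fell. Phlda1 had 9.44, 8.03 and 8.43 in dexamethasone arrays and 11.22, 10.21 and 11.05 in vehicle arrays (-2.19, SE 0.32, 4.57-fold, adjusted p = 0.00012). Socs3, an inhibitor of cytokine receptor signalling, had 9.97, 9.58 and 9.26 in dexamethasone and 11.01, 10.88 and 10.59 in vehicle arrays (-1.22, SE 0.19, adjusted p = 0.00032). Ier3 fell by 1.1 (SE 0.20) and Dusp4, a phosphatase of MAP kinases, by 0.99 (SE 0.14). The 14 others, Dusp1 among them, did not pass, and the median of the list was -0.08.

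Secreted ligands were split in the same way. Of 29 tested, the vasodilator peptide gene Adm (1.57, SE 0.18, adjusted p = 4.3e-06) and the stanniocalcin gene Stc2 (0.90, SE 0.20) rose, and Artn, a ligand of the GDNF family, fell. Artn had 7.73, 6.74 and 6.55 in dexamethasone and 8.95, 8.17 and 8.21 in vehicle arrays (-1.43, SE 0.27, adjusted p = 0.0039). Without dexamethasone replicate 3 its adjusted p was 0.052, and without vehicle replicate 1 it was 0.050; Stc2 lost its call without dexamethasone replicate 1 or 2 or vehicle replicate 2 or 3 (up to 0.25). With the block 2 rose and 6 fell, the added ones being Bdnf (-0.82), the EGF receptor ligand Hbegf (-0.71), Vegfa (-0.68), Gdnf (-0.68) and Stc1 (-0.56). Bdnf had 8.99, 8.11 and 8.33 in dexamethasone and 9.71, 8.88 and 9.28 in vehicle arrays, and its adjusted p was 0.057 without the block and 0.00084 with it.

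Of 21 BMP, Notch and Wnt genes tested, only Hey1, a Notch target, was called, and it fell. A difference below 0 was found for 17 of the 21, against 10511 of all 20893 genes, and the median was -0.15; no test was made of the list. Hey1 had 12.06, 11.88 and 12.08 in dexamethasone and 12.83, 12.89 and 13.00 in vehicle arrays (-0.90, SE 0.16, adjusted p = 0.0018). With the block 5 fell: Hey1, the Notch targets Nrarp (-0.81) and Hes1 (-0.68), Id2 (-0.50) and the ligand gene Wnt7a. Wnt7a had 10.32, 9.46 and 9.46 in dexamethasone and 11.31, 10.70 and 10.86 in vehicle arrays (-1.21, SE 0.30, adjusted p = 0.056 without the block and 0.00013 with it).

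No immediate early gene was called. Among the 18 tested, Fos had 9.54, 10.23 and 10.04 in dexamethasone and 10.16, 10.54 and 10.73 in vehicle arrays (-0.54, SE 0.32), Egr1 gave 0.02 (SE 0.36), and the largest difference was that of Egr2 (0.93, SE 0.47, adjusted p = 1.0). The median was -0.10.

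Transcription regulators were among the steepest risers. The Kruppel-like factor gene Klf9 had 13.94, 13.91 and 13.90 in dexamethasone and 11.87, 11.46 and 11.61 in vehicle arrays (2.27, SE 0.16, adjusted p = 5.6e-10). A second listing that RefSeq assigns to Klf9, 2310051E17Rik, rose by 2.19 (SE 0.19). Klf15 (1.26, SE 0.24) and Foxo3 (1.01, SE 0.15) were the other calls among 19 KLF, C/EBP, FoxO and SOX genes, whose median was 0.00. With the block Klf13 (0.95) was also higher and Klf3 (-0.78) lower. Outside the lists, the homeobox gene Gsc rose by 2.23 (SE 0.21), with vehicle arrays at 5.71 to 5.88, about the background level. Irx2 (1.13), the forebrain zinc finger gene Fezf2 (listed as Zfp312, 0.94), the repressor gene Bcl6 (0.89) and the p53 relative Trp63 (at least 1.7-fold, with no vehicle array above background) rose less, and each of these 4 calls was lost without at least 2 of the 6 arrays (adjusted p up to 0.24, for Bcl6 without dexamethasone replicate 2).

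Among 16 clock genes, Per1 rose and Bhlhe40, a repressor gene listed as Bhlhb2, fell. Per1 had 11.59, 11.57 and 11.92 in dexamethasone and 9.47, 9.49 and 9.39 in vehicle arrays (2.25, SE 0.28, 4.75-fold, adjusted p = 1.2e-05). Bhlhe40 had 11.22, 11.49 and 10.89 in dexamethasone and 11.91, 12.23 and 11.99 in vehicle arrays (-0.84, SE 0.15, adjusted p = 0.0021). Per2 differed by 0.13 (SE 0.16). With the block the repressor gene Ciart (listed as Gm129, 0.99) was also higher and the activator gene Arntl (-0.65) also lower, which makes 2 each way.

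The metabolic genes called were led by Bcat1. Bcat1, the cytosolic branched-chain aminotransferase, had 9.93, 9.90 and 10.28 in dexamethasone and 7.24, 6.8 and 6.56 in vehicle arrays (3.17, SE 0.23, 9.00-fold, adjusted p = 7.8e-10). It was 1 of 4 rises among 17 amino acid and glutamate genes; the others were the glutamate carboxypeptidase gene Folh1 (at least 3.52-fold, with no vehicle array above background), proline dehydrogenase Prodh (1.09) and Slc38a2 (0.84). The median of that list was 0.05. A second Bcat1 probe gave 0.72 (SE 0.30) and did not pass. Prodh lost its call without dexamethasone replicate 2 or vehicle replicate 3 (adjusted p up to 0.20), and Slc38a2 without dexamethasone replicate 1 or 3 or vehicle replicate 2 or 3 (up to 0.29).

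Plin4 was the 1 call among 22 lipid genes (median -0.01), or 1 of 2 with the block, which added the acyl-CoA synthetase gene Acsl3 (0.75). Pdk4 was the 1 call among 17 glucose and glycogen genes (median -0.02); it had 11.18, 11.90 and 11.61 in dexamethasone and 9.05, 9.30 and 9.15 in vehicle arrays. None of 12 cholesterol synthesis and uptake genes was called, with or without the block. All 12 had differences below 0, of -0.02 to -0.20, with a median of -0.08 against -0.01 over all genes, of which 10511 of 20893 were below 0; no test was made of the list.

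The stress and growth arrest lists held 1 or 2 calls each, against 120 higher and 26 lower among all 20893 genes tested. Ddit4 was the 1 call among 14 genes of the amino acid and endoplasmic reticulum stress list, and with the block Ddit3 (-0.65) and Trib3 (-0.66) were lower. Of 12 heat shock and metallothionein genes, Mt2 and the small heat shock protein gene Hspb1 rose, and Hspa1a (0.56) was added by the block. Hspb1 had 11.34, 10.15 and 10.75 in dexamethasone and 9.98, 9.21 and 8.66 in vehicle arrays (1.46, SE 0.31, adjusted p = 0.014); its call was lost without dexamethasone replicate 1 or 3 or vehicle replicate 2 or 3 (up to 0.20). Of 13 cell cycle inhibitors and cyclins, Gadd45g (1.23, SE 0.15, adjusted p = 8.4e-06) and Cdkn1a rose, while with the block Gadd45a (-0.63) and Gadd45b (-0.75) fell. None of 17 replication and mitosis genes was called; their median was -0.05 and the largest difference that of Mcm3 (-0.42, SE 0.32).

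Among 24 genes known from reactive astrocytes, 5 rose and 1 fell, with a median of 0.00. The rises were Lcn2, Fkbp5, the sphingosine kinase gene Sphk1 (1.81, SE 0.34), the steroid sulfate carrier gene Slc10a6 (at least 2.27-fold) and Hspb1, and the fall was Cxcl10. Gfap, the filament gene by which such astrocytes are recognised, differed by 0.02 (SE 0.65). Of 19 junction, aquaporin and channel genes, Gjb6 and the tight junction gene Cldn1 rose. Cldn1 had 7.91, 8.37 and 8.12 in dexamethasone and 7.02, 7.04 and 6.77 in vehicle arrays (1.19, SE 0.15, adjusted p = 1.2e-05). Gjb2, connexin 26, gave -0.25 (SE 0.19). No gene of 23 in the matrix list was called; with the block the protease gene Adamts1 (1.01) was higher.

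**Figure D3:**
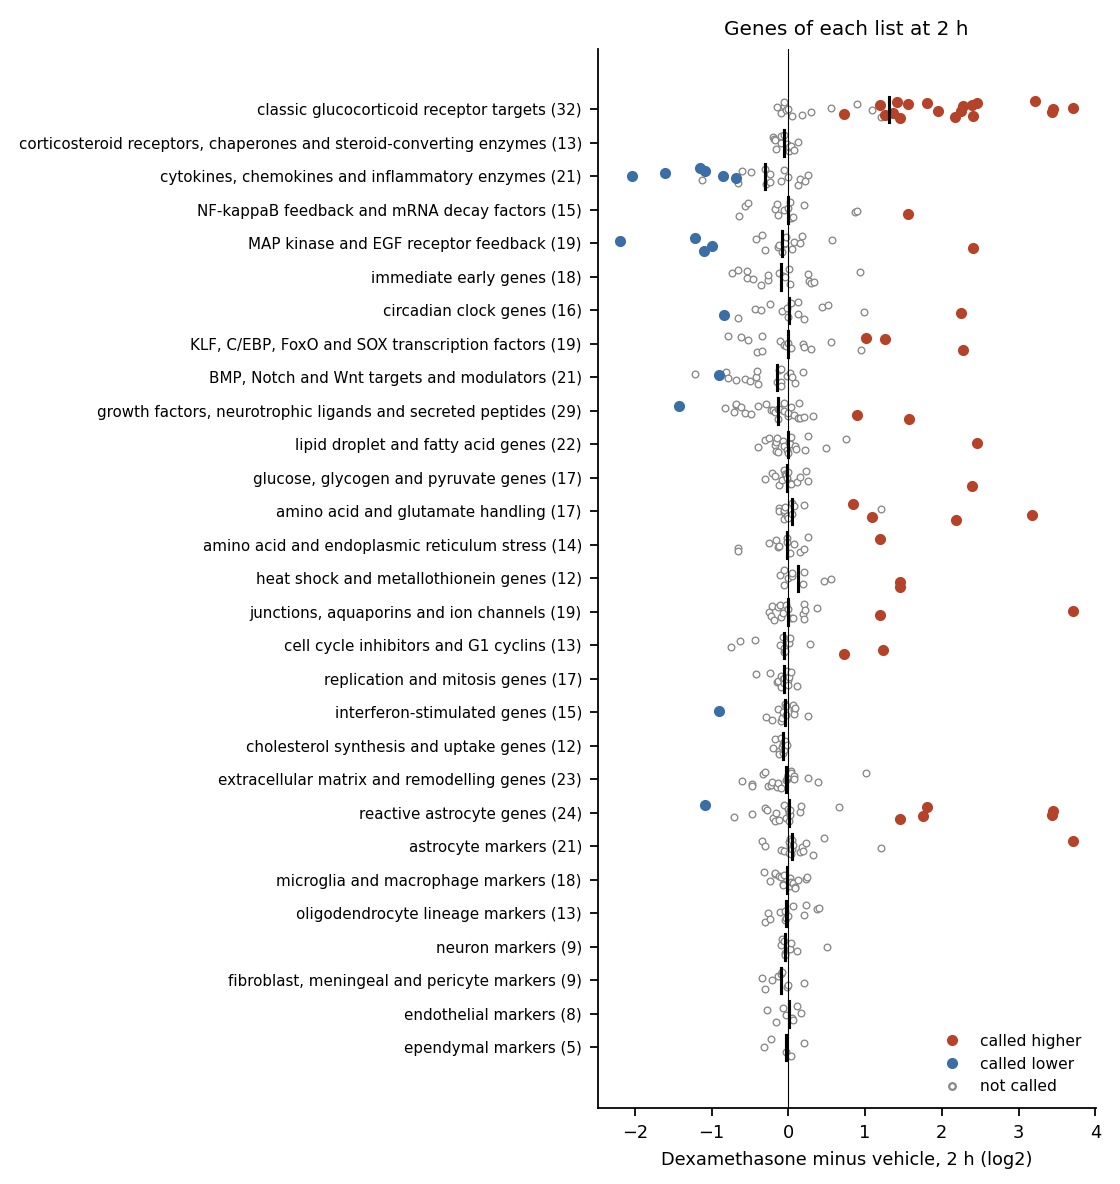
Each row is 1 gene list with the number of its genes tested, each point 1 gene at its log2 difference at 2 h, filled red where called higher, filled blue where called lower and open where not called; the black tick is the median. Receptor targets have their median at 1.31, the cytokine list at -0.31, and all other lists between -0.15 and 0.12.

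In all, 45 of the 146 called genes stand in a list, and most of the rest have other roles. Receptors and signalling genes that rose were the engulfment receptor kinase gene Mertk (2.21, SE 0.15), the adenosine receptor gene Adora2b (2.15, SE 0.21), the adaptor gene Spsb1 (1.95), the kinase genes Map3k6 (1.74), Pim3 (1.59) and Mapk4 (1.39), and Ramp2 (0.87), which encodes a partner of the adrenomedullin receptor. Enzymes were Dio2 (1.99, SE 0.23), the deiodinase that activates thyroid hormone, adenosine deaminase Ada (1.38), AMP deaminase Ampd3 (1.09), the carbonic anhydrase gene Car14 (1.1) and Nt5e (0.74), the ectoenzyme that makes adenosine from AMP. Carriers were Slc45a3 (2.73, SE 0.22) and the mitochondrial nucleotide carrier gene Slc25a33 (2.05). Tcim, listed as 1810011O10Rik, rose by 3.04 (SE 0.23), with 2 vehicle arrays above background. The glycogen-targeting phosphatase subunit gene Ppp1r3g, listed as 1600032L17Rik, rose by 2.33, with 1 vehicle array above background. The glycoprotein gene Lrg1 was at least 2.15-fold higher. In this group Mapk4, Ramp2 and Nt5e lost their calls without at least 1 array (Mapk4 at 0.052 without dexamethasone replicate 2, Ramp2 without any 1 array but vehicle replicate 1, up to 0.30, and Nt5e without any 1 of the 6, up to 0.28).

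Some rises began near background. Adora2b had 8.40, 8.29 and 8.12 in dexamethasone and 6.27, 6.00 and 6.09 in vehicle arrays. Of the 120 higher genes, 14 were not above background in any vehicle array, and E230001N04Rik was not above it on any of the 6 arrays. All 6 arrays lay above background for 121 of the 146 called genes.

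The falls outside the lists were led by the formin family gene Fhdc1, listed as 6330505N24Rik, and the cyclic AMP phosphodiesterase gene Pde4b. Fhdc1 had 10.54, 10.36 and 10.25 in dexamethasone and 11.76, 11.56 and 12.04 in vehicle arrays (-1.4, SE 0.15, adjusted p = 1.3e-06). Pde4b had 8.50, 8.0 and 7.81 in dexamethasone and 9.83, 9.41 and 9.22 in vehicle arrays (-1.38, SE 0.22, adjusted p = 0.00058). The rest were LOC100047268 (-1.01), the Polycomb group gene Pcgf5 (listed as 5830406C17Rik, -0.90), 4832420L08Rik and BC021891 (both -0.89), Micall2 (-0.82), the chemokine receptor gene Cxcr4 (-0.80), Sstr2 (-0.79), the pseudokinase gene Trib2 (-0.76), Sertad4 (-0.67) and Midn (-0.62). Of these, LOC100047268, Pcgf5, BC021891, Micall2, Sstr2, Sertad4 and Midn lost their calls without at least 1 array, with adjusted p up to 0.31 for BC021891 without dexamethasone replicate 3.

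The 2 h response was then set against the responses at other times, which share no arrays with it. The vehicle titles at 4 and 6 h carry the same suffix as those at 2 h, and those at the remaining times do not. A difference of 2 h from 1 h, or from 12, 18 and 24 h, cannot be told apart from the suffix. Among the 120 genes higher at 2 h, the median difference was -0.01 at 0.25 h, 0.38 at 1 h, 1.30 at 2 h, 1.68 at 4 h, 1.57 at 6 h, 1.32 at 12 h, 1.19 at 18 h and 1.23 at 24 h. Among the 26 lower genes it was -0.08, -0.43, -0.90, -0.92, -0.98, -0.49, -0.42 and -0.12 at the same times. The genes were chosen on the 2 h values, so the 2 h medians are a description. At 1 h, 109 of the 120 had a difference above 0 and 23 of the 26 one below it. Signs at 1 h were not counted over all genes, so these counts are a description.

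A rise larger at 2 h than at 1 h was called for 12 genes (0.0574 percent of genes tested), all of them called higher at 2 h, and a smaller one was called for no gene. Lcn2 differed by -0.14 at 1 h and by 3.45 at 2 h, a gain of 3.59 (SE 0.40, adjusted p = 2.9e-05). Fkbp5 gained 2.94 (SE 0.29), Bcat1 2.88, Plin4 2.60, Gjb6 2.21 and Slc45a3 2.14. Fam107a, at 1.70 by 1 h, was not among the 12. With the block 28 genes were called.

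Between 2 h and 4 h the responses of 98 of the 120 higher genes were larger at 4 h by estimate, but the difference was called for 8 genes, all lower at 2 h (0.0383 percent). Prodh differed by 1.09 at 2 h and 3.07 at 4 h (-1.98, SE 0.33, adjusted p = 0.027), Sult1a1 by 1.41 and 2.70 (-1.29, SE 0.23) and Plin4 by 2.46 and 4.03 (-1.56, SE 0.30). Of the 8, 5 were called at 2 h. This count was not stable: it was 0 without dexamethasone or vehicle replicate 1, 1 to 9 without any other array of 2 h, and 43 lower and 5 higher with the block.

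Larger differences in number separated 2 h from the late times. Against the mean response at 12, 18 and 24 h, the 2 h response was higher for 305 genes (1.46 percent) and lower for 213 (1.02 percent), and with the block for 1024 and 659. Most of these genes were not called at 2 h: among the 120 higher genes, 12 had a larger response at 2 h and 18 a smaller one, and among the 26 lower genes, 8 had the deeper fall at 2 h and 3 the shallower one.

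Gsc is an example of an early rise. Its difference was 1.29 at 1 h, 2.23 at 2 h, 1.5 at 4 h, 1.39 at 6 h, -0.31 at 12 h, 0.08 at 18 h and 0.06 at 24 h (2 h minus late 2.29, SE 0.26, adjusted p = 2.6e-06). Dio2 (1.90), Slc45a3 (1.86), Adora2b (1.80), Ppp1r3g (1.75) and Tcim (1.35) also had larger rises at 2 h than late. Prodh (-3.01), Sult1a1 (-2.97), Hif3a as Ipas (-2.76), Folh1 (-2.16) and Fam107a (-1.53) had smaller ones. The values of Ipas and Folh1 are fitted ones and rest on 2 h vehicle arrays that were not above background. Ppp1r3g had 1 and Tcim 2 of the 2 h vehicle arrays above background. Among the falls, Dusp4 differed by -0.99 at 2 h and by 0.61, 0.56 and 0.87 at 12, 18 and 24 h (-1.66, adjusted p = 4.8e-07), and Socs3 (-1.42) and Ier3 (-1.22) also had deeper falls at 2 h, whereas Ch25h (1.72) and Cxcl10 (1.27) fell further late.

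**Figure D4:**
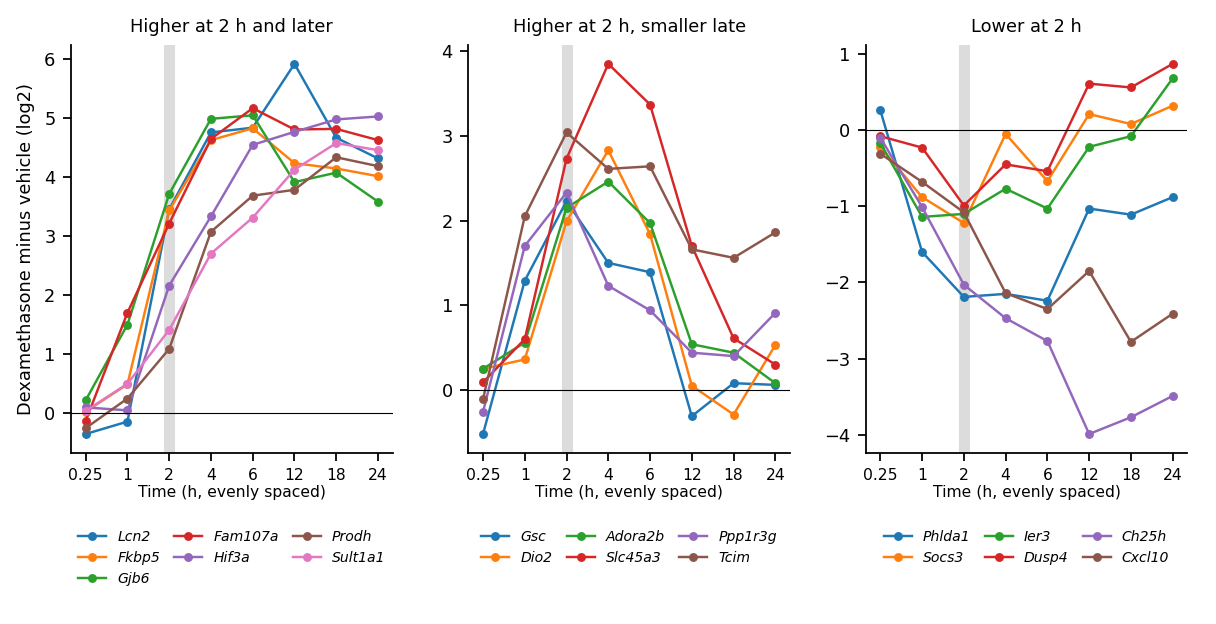
Each line is 1 gene, with time in hours (evenly spaced) on the horizontal axis and the log2 difference, dexamethasone minus vehicle, on the vertical axis; the grey band marks 2 h. Lcn2 passes from -0.14 at 1 h to 3.45 at 2 h, Gsc peaks at 2.23 at 2 h, and the fall of Dusp4 at 2 h (-0.99) is not there at 24 h (0.87).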

How the data were processed

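Total RNA was labelled and hybridized to Illumina BeadChips, read with GenomeStudio per the submitters' processing notes; the sources used here give no version. The deposited intensities are linear and quantile normalized by the authors: apart from the 10 lowest values, sorted columns differ by at most 0.5. No background had been subtracted. A further table holds 72 value columns whose names match no sample; these were not used, and only its gene symbols were read.

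Intensities were corrected by normexp (offset 16) and put on the log2 scale. Values under the most frequent intensity (69.79) were mirrored around it on a log2 axis, and the 99th percentile of the result, 90.7, served as background level (5.81 after correction and log2). Kept were the 29872 probes with 1 symbol that exceeded this level on 2 or more arrays, and the brightest probe stood for each listed symbol (20893 genes; listed symbols were updated through RefSeq, GRCm38.p6; of the 146 called genes, 125 matched and 21 keep the listed name). Values printed are log2 intensities or their differences. Folds marked "at least" set a group below background to that level. The number of arrays, and signal over background, limit the precision.

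The model, run in limma 3.58.1 (R 4.3.3), gave each of 16 groups a mean and used all 36 arrays. Variances were moderated by empirical Bayes, with 20 residual degrees of freedom and a prior worth 5.26. P-values were adjusted by Benjamini-Hochberg over all genes, and calls were made at an adjusted p under 0.05. Contrasts between times were made in the same fit. The replicate numbers were taken to pair the arrays only in the block fit and the pair differences. The main fit leaves this pairing out. SEs and adjusted p-values come from the main fit unless the block is named. Across genes, deviations from the group means correlated at 0.86, 0.67 and 0.77 between same-numbered 2 h arrays. Between others they correlated at -0.67 to 0.03. Deviations within a group sum to 0, so positive same-number values lower the others on balance, and the second range is not separate evidence. The block fit takes the number within each time (10 residual degrees of freedom). Alternatives covered background correction, filter, probe choice, arrays fitted, variance model, weights, median scaling and leaving out each array. Arrays were left out in the fit without the block, where leaving out an array also breaks its pair.

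The comparison, the 29 gene lists and the alternatives were chosen with earlier results of these data known. Genes named are the 20 largest rises and 16 largest falls among called genes whose arrays do not overlap, every called list member, the largest difference of a list with no call, a fixed set of receptor, cytokine and astrocyte genes, the 6 largest differences each way between times, and other called genes by role; 2 genes that this rule names are not reported here. Of the 8 largest risers with a promoter entry, whose windows the rule names, 4 windows are printed. Plots used Python 3.11.15 with matplotlib 3.10.9.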

Additional observations from a re-analysis of the deposited data

Results flagged for a closer look

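The following differences between the 2 h response and the response at another time passed the limma test of the difference itself. Against 1 h, 12 genes had a larger rise at 2 h: the 6 largest gains were those of Lcn2 (3.59, SE 0.40), Fkbp5 (2.94), Bcat1 (2.88), S3-12, which is Plin4 (2.60), Gjb6 (2.21) and Slc45a3 (2.14). Against 4 h, 8 genes were lower at 2 h, among them Prodh (-1.98), Klhl29 (-1.68), S3-12 (-1.56), C030009J22Rik (-1.48), S100a7a (-1.34) and Sult1a1 (-1.29). Klhl29 and S100a7a were not called at 2 h (0.19 and 0.51) and stood at 1.87 and 1.84 at 4 h.

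Against the mean of 12, 18 and 24 h, 305 genes were higher and 213 lower. The largest positive differences were those of Rab15 (2.36), Gsc (2.29), AU021034, which RefSeq names Fam216b (2.28), Gm129, which is Ciart (2.17), Trpc7 (2.15) and B3gat1 (1.99). Of these 6, Gsc alone was called at 2 h without the block and Ciart with it; Rab15 differed by 0.29 at 2 h and by -1.79, -2.43 and -2.01 at 12, 18 and 24 h. Among the largest negative differences were those of Gpx3 (-3.69), Galntl2, which is Galnt15 (-3.10), Prodh (-3.01), Sult1a1 (-2.97) and Ipas, a listing of Hif3a (-2.76, with no 2 h vehicle array above background). Gpx3, a secreted glutathione peroxidase, had 9.72, 8.01 and 9.37 in dexamethasone and 9.40, 8.07 and 9.06 in vehicle arrays at 2 h, with replicate 2 the lowest of both groups, and differed by 3.49, 3.83 and 4.30 at 12, 18 and 24 h.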

How the results depend on the processing

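The counts at 2 h moved by more than 1.5 times only with the arrays or the pairing used in the fit. The genes called higher, 120 in the fit reported, numbered 46 with the 6 arrays of 2 h alone, 79 with the 12 arrays of 2 h and 4 h, 257 with the replicate block over all 36 arrays and 243 with the block over 6 arrays; those called lower, 26, numbered 2, 16, 131 and 130 under the same settings and 41 without the 4 arrays of 12 h. The cause of these changes was not tested. Of the 146 genes, 145 kept their call with the block over 6 arrays, 47 with the 6 arrays alone and 44 under every setting. Without 1 array of 2 h the counts were 83 to 112 higher and 20 to 33 lower, and 83 of the 146 genes kept their call without every single array. Against 1 h the count was 12, 28 with the block and 11 to 13 without 1 array. Against 4 h the 8 lower genes became 20 with an offset of 50 or no background correction, 15 with mean probes or median scaling, 17 without the 12 h arrays or with array weights, 5 with a trended robust variance, and 43 with the block, which also gave 5 higher; without 1 array they were 0 to 9. Against the late times, 305 and 213 became 1024 and 659 with the block, and 205 to 305 and 146 to 214 without 1 array. Array weights at 2 h were 0.411, 0.993 and 0.679 for dexamethasone and 0.428, 1.76 and 0.597 for vehicle arrays.

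Signs were followed for the called genes and the others named by rule. They turned only for listings not called in the fit reported, whose differences were -0.31 (Ccl2) to 0.18 (Hif3a). Hif3a here is the probe of that name, not the Ipas listing. Without 1 array of 2 h the difference ranged over -0.36 to 0.02 for Abca1, -0.14 to 0.27 for Aqp4, -0.60 to 0.05 for Ccl2, -0.10 to 0.09 for Cebpd, -0.08 to 0.15 for Egr1, -0.44 to 0.63 for Gfap, -0.11 to 0.14 for Gja1, -0.04 to 0.30 for Hif3a, -0.50 to 0.10 for Hsd11b1 and -0.23 to 0.02 for Nr3c1. It reached 0.11 for Dusp1 and 0.01 for Nr3c2. Mean probes gave -0.05 for Aqp4, and array weights gave -0.01 for Cebpd and -0.02 for Egr1.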

Other observations

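The called genes have 90 further probes on the array above background. Of these, 83 have the direction of the called gene and 23 pass on their own in that direction; none passes in the opposite direction. Gadd45g, Map3k6 and Mertk are examples in which a second probe also rose (1.85, 1.98 and 1.94). Second probes of Bcat1 (0.72), Ppp1r3g (-0.11), Dio2 (-0.23), Sphk1 (0.00), Pdk4 (0.13) and Tob2 (0.13) are examples that did not pass. The second probe of Tsc22d3 gave 1.77 (SE 0.55, adjusted p = 0.31). Of the 146 called genes, 21 have no match in RefSeq and are known here by their listing, with D230046H12Rik (1.75), BC023892 (1.75) and B230312E02Rik (1.76) the largest of them that rose.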
